A study of Mus musculus with 8 samples.

Results

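The inflammasome and pyroptosis genes described here were the rows of the RNA-Seq count table whose name was *Nlrp3*, *Nlrp1b*, *Aim2*, *Pycard*, *Casp1*, *Casp4*, *Gsdmd* or *Gsdme*. All 8 names were found among the 54658 gene symbols of the table, each in 1 row. The libraries came from primary murine articular chondrocytes, isolated from femoral head cartilage of wild-type mice aged 3 weeks, and 4 samples were treated with IL-1β at 1 ng/mL for 24 h (replicates 1 to 4 below) and 4 with vehicle. No strain, sex or number of mice was given, and nothing stated that the replicates came from separate cultures or animals, so the p-values below measure the spread between these libraries, which may be technical. Each library held between 10992355 counts (IL-1β replicate 1) and 17456063 counts (vehicle replicate 2). At these depths, a detection floor of 3 reads corresponded to 0.173 to 0.270 CPM (the counts of a gene divided by the library's total in units of 1e+06 counts, scaled with edgeR's TMM factors).

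Inflammasomes are protein platforms on which inflammatory caspases are activated. Their sensors include NLRP3, NLRP1B and AIM2. NLRP3 and AIM2 recruit caspase-1 through the adaptor ASC, which is encoded by *Pycard*. Active caspase-1 then matures IL-1β and IL-18 and cleaves gasdermin D. In the non-canonical route, caspase-11, the product of mouse *Casp4*, senses cytosolic lipopolysaccharide and cleaves gasdermin D without a canonical sensor, and the freed N-terminal part of gasdermin D forms pores in the plasma membrane. Gasdermin E is a related pore former. In joint tissue these pathways are best known from macrophages and other myeloid cells.

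Of the 8 genes, *Casp4* and *Gsdme* were readily measured, *Gsdmd* and *Pycard* were low, and the canonical sensors and *Casp1* lay at or close to the detection floor. *Casp1*, *Nlrp1b* and *Aim2* had 3 reads or fewer in every library, and *Nlrp3* had 3 reads or fewer in 5 of the 8 libraries. After IL-1β, *Casp4* rose 1.64-fold and *Gsdmd* 2.14-fold. *Nlrp3* reads were few but more frequent with IL-1β, at 18 reads against 2 reads over the 4 libraries of each group. *Gsdme* and *Pycard* did not pass the test.

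*Casp1* and *Casp4* are neighbours on chromosome 9 of the GRCm38 assembly (also called mm10). *Casp1* (ENSMUSG00000025888.5, 5298517 to 5307265) ends 1562 bases before *Casp4* (ENSMUSG00000033538.13, 5308828 to 5336783) begins, on the same strand, and *Casp12* (5345430 to 5373032) follows 8646 bases further on. *Nlrp3* (ENSMUSG00000032691.14) lies on chromosome 11 from 59541568 to 59566956. The RefSeq promoters of the first 2 genes and of *Nlrp3* (GRCm38.p6, from 250 bases before the start site to 50 bases after it) are shown because these neighbours differed in level and because *Casp4* and *Nlrp3* had more reads with IL-1β. The sequences are those at chr9:5308599-5308898 (plus strand), chr9:5298267-5298566 (plus strand) and chr11:59541319-59541618 (plus strand, the first of 2 annotated *Nlrp3* starts), with capitals on matches to the consensus NF-κB binding site on either strand.
Casp4 promoter: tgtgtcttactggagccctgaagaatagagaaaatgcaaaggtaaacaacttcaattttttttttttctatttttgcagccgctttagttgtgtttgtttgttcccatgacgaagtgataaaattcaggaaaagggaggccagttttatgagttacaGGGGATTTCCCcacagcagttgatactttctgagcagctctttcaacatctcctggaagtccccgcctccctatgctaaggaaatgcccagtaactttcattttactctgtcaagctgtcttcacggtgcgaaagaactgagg
Casp1 promoter: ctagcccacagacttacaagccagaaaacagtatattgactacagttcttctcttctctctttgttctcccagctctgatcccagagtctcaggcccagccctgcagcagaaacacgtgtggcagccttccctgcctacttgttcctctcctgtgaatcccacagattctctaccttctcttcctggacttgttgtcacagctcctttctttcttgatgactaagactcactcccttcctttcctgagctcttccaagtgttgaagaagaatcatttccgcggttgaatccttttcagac
Nlrp3 promoter: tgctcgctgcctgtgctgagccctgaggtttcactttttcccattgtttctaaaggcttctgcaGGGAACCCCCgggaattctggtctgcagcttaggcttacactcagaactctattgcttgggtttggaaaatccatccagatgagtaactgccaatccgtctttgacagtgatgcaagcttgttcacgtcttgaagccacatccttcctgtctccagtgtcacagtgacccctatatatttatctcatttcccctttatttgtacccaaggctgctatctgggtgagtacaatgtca

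In the *Casp4* promoter the capitals form 1 run of 11 letters, GGGGATTTCCC, in which overlapping matches lie, and it starts 93 bases before the start site (chromosome 9, 5308756 to 5308766). Of 32851 RefSeq promoters of this length, 4.51% held a match to the consensus. The exact run of 11 letters was looked up after it was seen, and 6 promoters (0.0183%) of 5 genes held it. These include the 2 overlapping promoters of *Casp4* itself. The run was looked up on the given strand only, whereas the consensus was searched on both strands, so the shares are not alike. Promoters of 7 of the 8 genes, all but *Gsdmd*, were searched, and the consensus was matched for *Casp4* and *Nlrp3*. For *Casp4* the match lay in the promoters of both annotated starts, which overlap. For *Nlrp3* it lay only in the promoter shown, that of the first of 2 annotated starts. The 4.51% is a share of promoters and not of genes. The AP-1 letters TGANTCA, the GAS letters TTCNNNGAA and the ISRE, searched as a pair of GAAA separated by any 2 bases, each on both strands, were in none of the promoters of the 7 genes, against 7.81%, 8.3% and 3.44% of all promoters. A match describes the sequence only, and binding was not measured.

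The canonical sensors were hardly detected with or without IL-1β. *Nlrp3*, the sensor of ion efflux and membrane damage, had 2, 4, 7 and 5 reads in IL-1β replicates 1 to 4 and 1, 0, 1 and 0 reads in vehicle replicates 1 to 4. All 4 IL-1β libraries lay above all 4 vehicle libraries in CPM (p = 0.0286 by a two-sided exact permutation test, which with 4 and 4 libraries can go no lower), as did 9.5% of all genes with at least 1 read. The ratio of the summed reads, scaled by the total counts, was 10.2 with a 95% exact counting interval of 2.45 to 91.0. *Nlrp3* did not pass the filter of a CPM above 1 in at least 4 libraries, so it was not among the 14404 genes tested. In edgeR's quasi-likelihood test without a filter, over 32379 genes, its adjusted p was 0.00411, and 8.92% of these genes were called higher. Its mean level with IL-1β, 0.310 ± 0.101 CPM (SD, n = 4), stayed close to the floor.

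*Aim2* (ENSMUSG00000037860.15, chromosome 1, 173350879 to 173466040) encodes a sensor of cytosolic double-stranded DNA and had a single read, in IL-1β replicate 1. *Nlrp1b* (ENSMUSG00000070390.12, chromosome 11, 71153102 to 71230733), the mouse sensor of anthrax lethal factor, had a single read as well, in vehicle replicate 1. Neither gene allows a comparison between the groups at this depth, and levels under the floor of 3 reads per library cannot be separated from 0. *Nlrp1b* has close relatives beside it, and reads shared with them may have gone uncounted, since the handling of reads with several positions is not given in the sources used here.

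*Casp1*, the effector caspase of the canonical inflammasomes, had 1, 0, 2 and 2 reads in the IL-1β libraries and 1, 1, 1 and 2 reads in the vehicle libraries. The groups overlapped, and their 5 and 5 summed reads gave a ratio of 1.14 with a 95% exact counting interval of 0.262 to 4.95. For every 100 reads of its neighbour *Casp4*, a library held 0 to 0.823 reads of *Casp1*. The listed lengths are 1497 bases for *Casp1* and 3710 bases for *Casp4*. Per kilobase of the listed length, the mean level of *Casp1* in the vehicle group was 0.0531 CPM and that of *Casp4* was 4.21 CPM.

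*Casp4* was the most abundant of the 8 genes per length. It had 27.4, 24.2, 25.4 and 25.6 CPM in IL-1β replicates 1 to 4 and 15.2, 15.3, 16.0 and 16.0 CPM in vehicle replicates 1 to 4. Every IL-1β library lay above every vehicle library, as did 18.7% of all genes tested, and the gap between the groups was wider than the range within either. Its log2 fold change of 0.71 had an SE of 0.0641 and, by edgeR's quasi-likelihood test, a Benjamini-Hochberg adjusted p of 2.42e-10. It lay between 0.68 and 0.74 with each library left out in turn. The values rest on 225 to 428 reads per library. *Casp4* rose without reaching the 2-fold change used here, after the methods of the study, to call a differentially expressed gene (DEG, a log2 fold change beyond 1 and an adjusted p under 0.05). A stricter limit, a log2 fold change beyond 2, also appears in the study, and no gene of the 4 tested reached it.

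*Gsdmd* (ENSMUSG00000022575.5, chromosome 15, 75862327 to 75867408), the pore former cleaved by both caspase-1 and caspase-11, had 3.96, 3.03, 2.02 and 2.55 CPM in the IL-1β libraries and 1.10, 1.73, 1.35 and 1.05 CPM in the vehicle libraries. The groups did not overlap, though the IL-1β libraries were widely spread and replicate 1, the library of lowest depth, was the highest. These levels rest on 34 to 44 reads with IL-1β and 16 to 30 reads with vehicle. The log2 fold change reached 1.10, with an SE of 0.228 and an adjusted p of 0.000268 in edgeR, which made *Gsdmd* a DEG. Without IL-1β replicate 1 it was 0.93 (adjusted p = 0.00217), past the test but no longer a DEG. By this definition 1 of the 4 tested genes of the 8 was a DEG with a higher level and 0 were DEGs with a lower level. Of the genes tested, 5.21% were DEGs, 2.86% with a higher and 2.35% with a lower level.

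*Gsdme* (ENSMUSG00000029821.15, chromosome 6, 50188888 to 50263862), the related pore former, measured 20.6, 19.5, 19.0 and 20.0 CPM in the treated libraries, and 17.9, 18.1, 17.6 and 18.7 CPM in those given vehicle. The IL-1β libraries lay above the vehicle libraries, but by a narrow margin, from 18.7 to 19.0 CPM. Its log2 fold change of 0.13 (95% interval -0.01 to 0.26) did not pass edgeR's test (adjusted p = 0.131). Reads of *Gsdmd* for every 100 reads of *Gsdme* in the same library numbered 10.6 to 19.2 with IL-1β and 5.63 to 9.55 with vehicle. The share of *Gsdmd* among the reads of these 2 gasdermins was thus higher in every IL-1β library, a comparison that does not depend on how the libraries are scaled. 

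*Pycard* (ENSMUSG00000030793.4, chromosome 7, 127989708 to 127993867), which encodes the adaptor ASC, stood at 1.71, 3.61, 2.02 and 2.70 CPM after IL-1β, and at 2.71, 3.41, 3.21 and 3.42 CPM after vehicle. The groups overlapped, since IL-1β replicate 2 was the highest of all 8 libraries and the other IL-1β libraries lay below every vehicle library. Its log2 fold change came to -0.33 (SE 0.191, 95% interval -0.73 to 0.06, adjusted p = 0.177 from edgeR). Without IL-1β replicate 2 it was -0.56 (adjusted p = 0.0246), so that library decides the call. An annotated gene on the opposite strand, *Gm45205*, shares 12.8% of the exon bases of *Pycard*, and whether the counting used strand is not given in the sources used here.

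**Figure D1:**
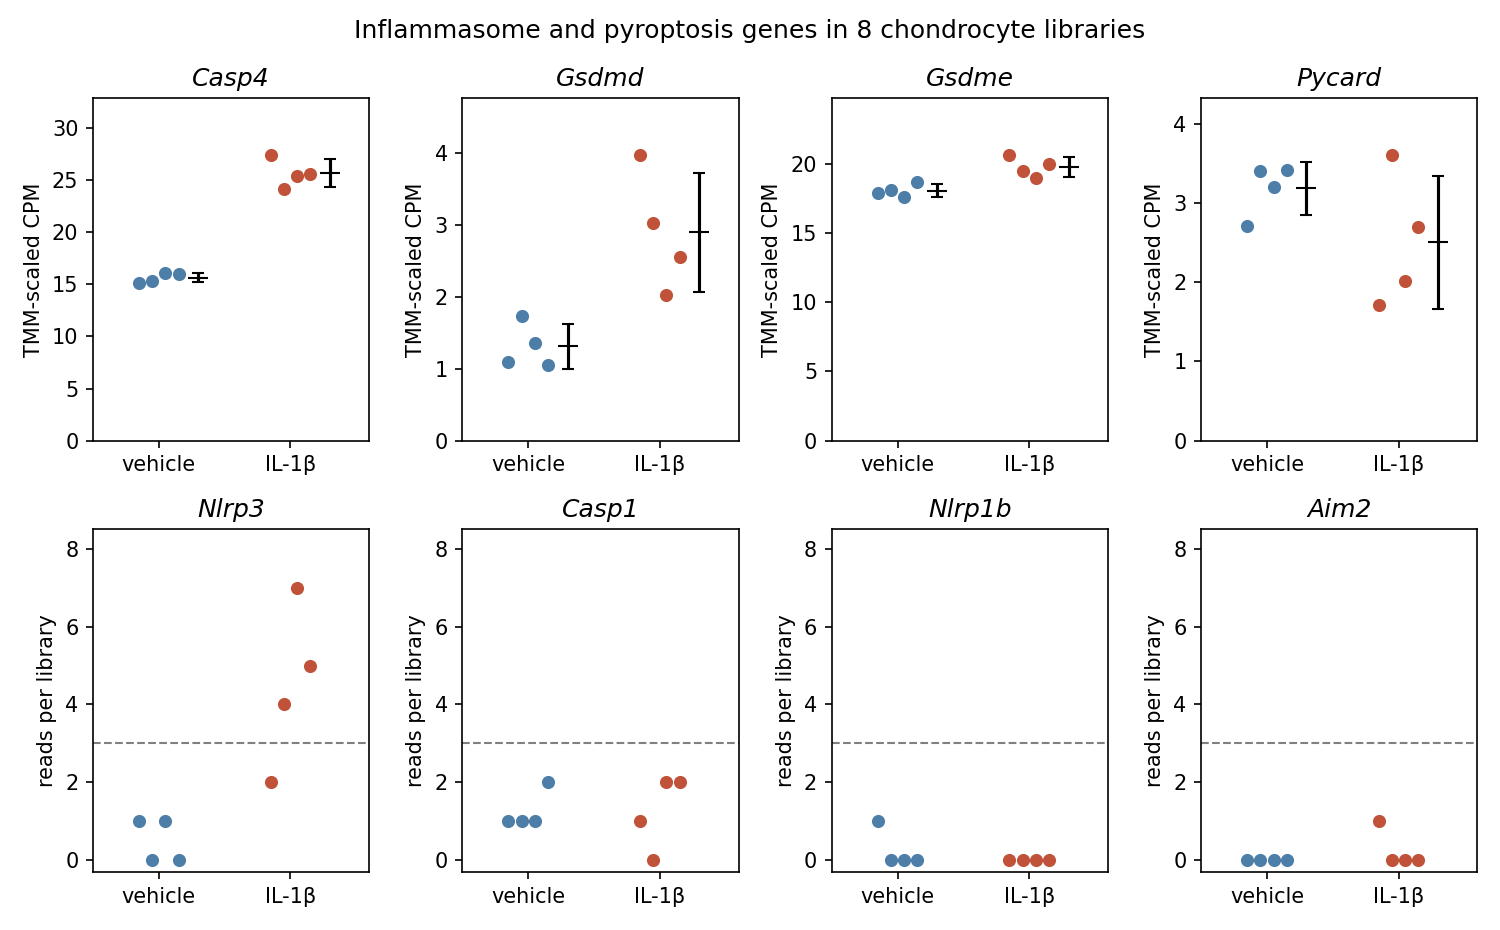
Each panel plots 1 gene, with 1 point per library (4 vehicle, 4 IL-1β). The upper row gives TMM-scaled CPM with the mean and SD of each group beside the points, and the lower row gives reads per library with the floor of 3 reads as a dashed line. The IL-1β points of *Casp4* (24.2 to 27.4 CPM) and *Gsdmd* (2.02 to 3.96 CPM) lie above all vehicle points, and in the lower row only *Nlrp3* with IL-1β passes the line, in 3 libraries.

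At an adjusted p under 0.05, 2 of the 4 genes of the group that were tested were higher after IL-1β (20.4% of all genes tested were). Of the same 4 genes, 0 were lower (19.8% of all genes tested were). The filter kept 4 of the 8 genes, and the 95% intervals of the other tested genes, *Gsdme* and *Pycard*, both include 0, so neither passed at an unadjusted p under 0.05 either. DESeq2 likewise called 2 higher and 0 lower. The libraries of 3 of the 4 tested genes did not overlap between the groups, all 3 higher after IL-1β, against 36.8% of the genes tested in either direction, 18.7% higher and 18.2% lower. Shares over only 4 genes do not set the group apart from the genes tested, and the values of the single genes are the result.

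Levels of different genes can be compared per kilobase of length. With vehicle, the order was *Casp4* (4.21 ± 0.121 CPM per kilobase, SD, n = 4), *Gsdme* (1.42 ± 0.0351), *Pycard* (0.839 ± 0.0871) and *Gsdmd* (0.551 ± 0.132). With IL-1β, it was *Casp4* (6.91 ± 0.359), *Gsdme* (1.55 ± 0.0550), *Gsdmd* (1.22 ± 0.347) and *Pycard* (0.660 ± 0.221). On the listed length, the ranges of *Gsdmd* and *Pycard* overlapped in both groups, as did those of *Gsdme* and *Gsdmd* with IL-1β. These genes were measured in the same libraries, so overlapping ranges do not show whether they differed within a library. Within a library, *Pycard* lay above *Gsdmd* in 4 of 4 vehicle libraries and below it in 4 of 4 IL-1β libraries. *Nlrp3* (0.0764) and *Casp1* (0.0586) followed with IL-1β and overlapped each other, and all other means were lower. The listed length counts the exons of every annotated transcript, which matters for *Gsdme*, with 12742 bases listed and 2502 bases in its longest principal transcript. With principal transcript lengths the order of the first 4 genes was the same as with the listed lengths. With IL-1β the ranges then no longer overlapped, at 7.60 to 8.25 CPM per kilobase for *Gsdme*, 1.13 to 2.21 for *Gsdmd* and 0.451 to 0.949 for *Pycard*. With vehicle, *Gsdmd* (0.587 to 0.967) and *Pycard* (0.714 to 0.899) still overlapped, and *Pycard* lay above *Gsdmd* in 3 of 4 libraries. *Casp4* stood less far above *Gsdme* (17.9 against 7.90 CPM per kilobase with IL-1β).

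**Figure D2:**
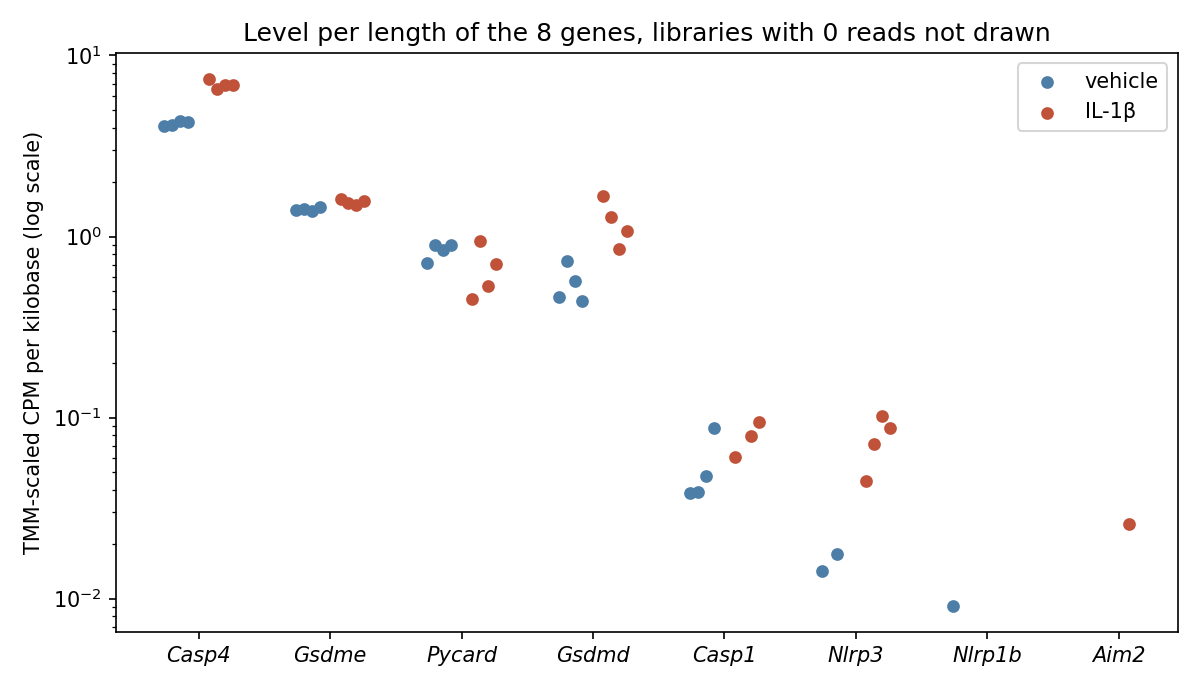
TMM-scaled CPM per kilobase of listed length (log axis) of the 8 genes, 1 point per library, with vehicle in blue and IL-1β in red, and libraries with 0 reads not drawn. *Casp4* lies highest at 4.09 to 7.38, the genes from *Gsdme* to *Gsdmd* lie between 0.442 and 1.67, and the canonical sensors and *Casp1* lie at 0.102 or lower.

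The labelled cell type was checked against 8 chondrocyte markers, which ranged with vehicle from 8.47 CPM (*Matn3*) to 11191 CPM (*Col2a1*). All 8 fell as DEGs after IL-1β (2.35% of all genes tested did), including *Col2a1* (11191 ± 195 to 2844 ± 117 CPM, SD, n = 4). Macrophages express inflammasome genes strongly, so 12 of their markers were read beside the 8 genes. Of these, 5 were at the floor, *C1qb* had 0 reads, and *Ptprc*, the pan-leukocyte CD45 gene, had 0 to 6 reads per library. *Csf1r* had 7 to 19 reads per library, *Fcer1g* 2 to 9 and *Mrc1* 0 to 12. Per kilobase, *Csf1r* (0.192 CPM with IL-1β, 0.148 with vehicle) lay above *Nlrp3* (0.0764 and 0.00795) and *Casp1* (0.0586 and 0.0531). The summed level of the 12 markers was 16.9 to 20.6 CPM with IL-1β and 13.3 to 15.3 CPM with vehicle, most of it from *Cd68*, a lysosomal gene not restricted to macrophages. Without *Cd68* the sums overlapped, at 3.33 to 4.33 CPM with IL-1β and 3.92 to 5.92 CPM with vehicle. The markers moved in different directions: *Cd68* rose (log2 fold change 0.67, adjusted p = 8.49e-07 in edgeR), *Lyz2*, the lysozyme gene of myeloid cells, fell (-0.60, adjusted p = 0.0364), and *Laptm5*, which was not tested, had 3 to 9 reads with IL-1β and 14 to 22 with vehicle. The summed levels of the neutrophil, lymphocyte, endothelial and osteoclast markers overlapped between the groups as well and stayed at 1.25 CPM or lower. In bulk RNA, more cells of a type and more RNA per cell cannot be told apart, and the part of non-chondrocytes in the few reads of *Nlrp3* and *Casp1* was not tested.

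The cytokines that inflammasomes process were scarce in the same libraries. *Il1b*, which encodes pro-IL-1β, had 1, 2, 2 and 4 reads with IL-1β and 1, 3, 3 and 0 reads with vehicle, and the groups overlapped. *Il18* passed the filter at 1.09 ± 0.314 CPM after IL-1β against 1.22 ± 0.316 CPM (SD, n = 4). Its log2 fold change was -0.10 (95% interval -0.66 to 0.45, adjusted p = 0.802 from edgeR). Its antagonist *Il18bp* had 4.09 ± 0.368 and 4.86 ± 0.783 CPM (log2 fold change -0.25, adjusted p = 0.163). Of the 6 substrate and antagonist genes of this list, 2 were tested and 0 passed edgeR's test (40.2% of all genes tested passed). *Il18* and *Il18bp* were the 2 genes tested, and the remaining genes had 0 to 9 reads per library.

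Among 14 other inflammasome sensors, 10 were at the floor in every library and 1 was tested. *Nlrc4*, the sensor partner of the NAIP receptors for bacterial flagellin and secretion systems, had 6 to 9 reads per library with IL-1β and 3 to 13 with vehicle. The tested gene was *Ifi204*, a DNA-binding member of the same interferon-inducible family as *Aim2*, which rose from 4.08 ± 0.136 to 9.18 ± 1.42 CPM (SD, n = 4), by a log2 fold change of 1.15 ± 0.123 (SE, adjusted p = 7.23e-09 in edgeR). Its relatives are close in sequence, so reads may be split among them. Of 8 other gasdermin genes, 7 were at the floor and none passed the filter, with *Gsdma*, which is known from skin, reaching 8 reads and *Gsdma3* 3 reads. *Gsdmd* and *Gsdme* were therefore the gasdermins that could be measured here.

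Of 6 other caspases, 5 were tested, 2 rose and 1 fell (all genes tested: 20.4% higher, 19.8% lower). *Casp12*, the neighbour of *Casp4* and an inflammatory-group caspase associated with the endoplasmic reticulum, fell from 18.9 ± 2.02 to 8.27 ± 0.450 CPM (SD, n = 4). This log2 fold change of -1.20 (SE 0.0911, adjusted p = 6.56e-12 in edgeR) had the opposite direction to *Casp4*. In every IL-1β library *Casp4* had more reads than *Casp12* (272 to 334 per 100 reads of *Casp12*), and in every vehicle library it had fewer (71.7 to 94.2). *Casp6* and *Casp9*, caspases of apoptosis, rose with log2 fold changes of 0.72 and 0.37 (adjusted p = 6.85e-05 and 0.000824). *Casp8*, the initiator of death receptor signaling, measured 11.1 ± 0.860 CPM after IL-1β against 12.2 ± 1.07 CPM (adjusted p = 0.288).

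The activators and licensing factors comprised 16 genes of the table. Of these, 12 were tested, 6 rose and 3 fell (all genes tested: 20.4% higher, 19.8% lower). *Gbp2*, an interferon-inducible GTPase that coats bacteria and promotes caspase-11 activation, showed the largest change of the tested genes of all lists, from 1.38 ± 0.240 to 13.1 ± 0.393 CPM (SD, n = 4). The log2 fold change was 3.23 (SE 0.133, adjusted p = 4.91e-18 in edgeR). Its relative *Gbp7* also rose as a DEG, from 0.810 ± 0.158 to 1.91 ± 0.346 CPM (log2 fold change 1.22). *Panx1* and *P2rx7*, membrane channels that act upstream of NLRP3, rose with log2 fold changes of 0.75 and 0.49, and *Tmem173*, which encodes STING, and *Irf1* rose by 0.42 and 0.29. The calls of *Tmem173* and *Irf1* were lost without IL-1β replicate 3 (adjusted p = 0.0540 and 0.0887) or vehicle replicate 1 (0.0534 and 0.0882), and that of *Irf1* also without vehicle replicate 4 (0.0639). The NLRP3 partners *Nek7* and *Txnip* moved the other way. *Nek7*, the kinase that bridges NLRP3 subunits, fell from 101.2 ± 3.24 to 76.3 ± 1.18 CPM (log2 fold change -0.41, adjusted p = 1.76e-10), and *Txnip* fell from 224 ± 3.27 to 183 ± 2.72 CPM (log2 fold change -0.29, adjusted p = 3.14e-09). *Cgas*, the DNA sensor upstream of STING, fell from 1.98 ± 0.295 to 1.12 ± 0.286 CPM (log2 fold change -0.85, adjusted p = 0.00408). It had 13 to 18 reads per library with IL-1β and 27 to 39 with vehicle. Its level was close to the filter with IL-1β, at 0.938 CPM in replicate 2 and 0.922 CPM in replicate 4.

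Among 11 genes of the table listed as restraining factors, 10 were tested, 2 rose and 3 fell (all genes tested: 20.4% higher, 19.8% lower). The list name is a label, and whether each gene restrains inflammasomes in these cells was not tested. *Serpinb1a*, a protease inhibitor that restrains inflammatory caspases, fell from 4.41 ± 0.937 to 2.15 ± 0.505 CPM (SD, n = 4, log2 fold change -1.02, adjusted p = 4.40e-05 from edgeR). It was a DEG by a small margin and no longer so when vehicle replicate 3, IL-1β replicate 2 or IL-1β replicate 4 was left out (log2 fold changes of -0.88, -0.89 and -0.99). *Bcl2l1* and *Bcl2*, inhibitors of apoptosis that also bind NLRP1, fell by 0.28 and 0.29 on the log2 scale, while *Pstpip1* and *Txn1* rose by 0.44 and 0.12. The call of *Bcl2* was lost without IL-1β replicate 4 or vehicle replicate 2 (adjusted p = 0.0740 and 0.0663).

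Genes that act on the membrane after pore formation were abundant, with log2 fold changes of -0.06 to 0.10. Of 6 tested, 1 rose and 0 fell (all genes tested: 20.4% higher, 19.8% lower). *Chmp4b*, an ESCRT-III subunit that repairs gasdermin pores, rose by 0.10 on the log2 scale (203 ± 5.18 against 189 ± 9.01 CPM, adjusted p = 0.0191 from edgeR). Its call was lost without IL-1β replicate 4, vehicle replicate 3 or vehicle replicate 4 (adjusted p = 0.0751, 0.0811 and 0.0880). *Ninj1*, which ruptures the membrane late in pyroptosis, had 114 ± 6.52 CPM after IL-1β against 108 ± 7.85 CPM (log2 fold change 0.09, 95% interval -0.00081 to 0.18, adjusted p = 0.111). Of 6 genes of necroptosis and PANoptosis, 5 were tested and 4 rose (20.4% of all genes tested did). The gene not tested, *Zbp1*, was at the floor with 0 to 3 reads per library. *Mlkl*, the pore former of necroptosis, rose from 1.40 ± 0.289 to 3.68 ± 1.02 CPM (SD, n = 4, log2 fold change 1.35, SE 0.211, adjusted p = 5.36e-06), *Cflar* by 0.45, *Ripk3* by 0.42 and *Ripk1* by 0.19 on the log2 scale. *Fadd* had 18.5 ± 1.63 and 17.6 ± 1.34 CPM (adjusted p = 0.453).

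Over these lists together, 41 of 73 genes were tested, with 16 higher, 7 lower and 18 not past the test at an adjusted p under 0.05. With a CPM above 1 required in all 8 libraries, which leaves out *Gbp7* and *Cgas*, 15 were higher and 6 lower. Of all genes tested, 40.2% passed in either direction, 20.4% higher and 19.8% lower. The lists were chosen with earlier results of these data known and were not tested as sets. The median log2 fold change was 0.08 over the 41 genes and 0.00 over all genes tested.

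**Figure D3:**
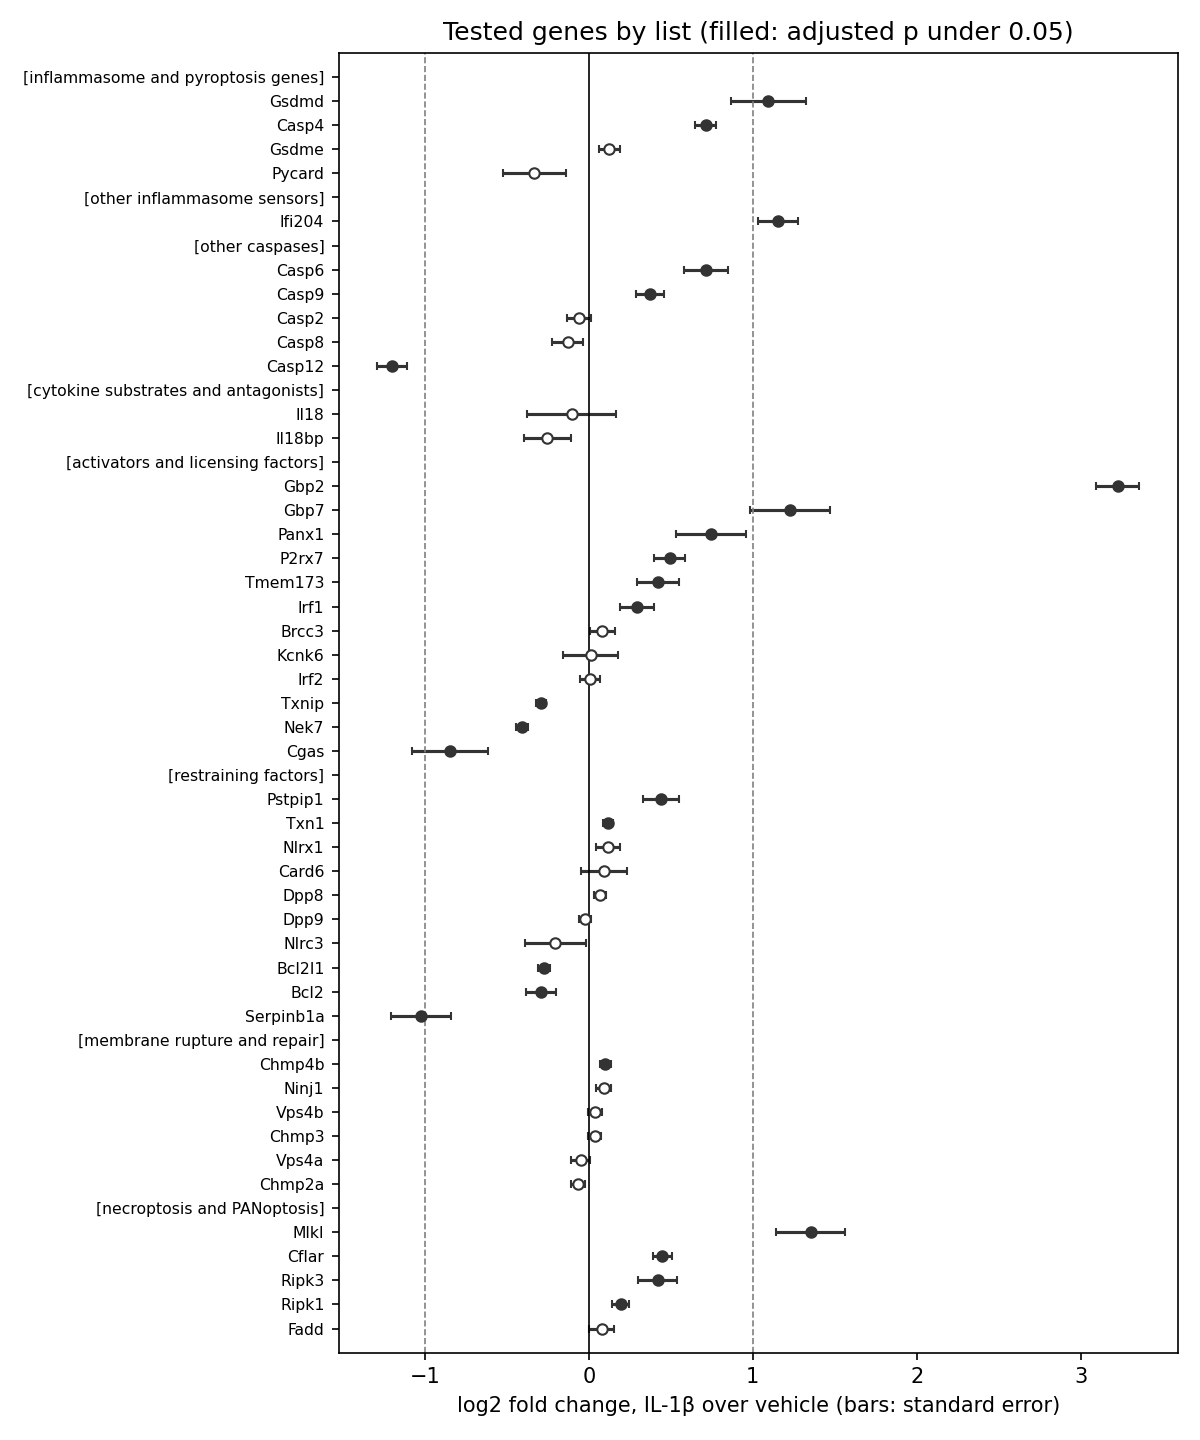
Log2 fold change (IL-1β over vehicle) with its standard error for each tested gene, grouped by list, with filled points for an adjusted p under 0.05 and dashed lines at a log2 fold change of -1 and 1. *Gbp2* lies furthest to the right (3.23) and *Casp12* furthest to the left (-1.20), with *Gsdmd* (1.10) and *Casp4* (0.71) highest among the 8 genes.

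*Gsdmd* had the largest absolute log2 fold change of the 4 genes tested, and the genes whose log2(CPM + 1) followed it most closely over the 8 libraries were *Suds3*, *Gm36940* and *Lekr1* (Pearson's r of 0.978, 0.977 and 0.973). Among the 14404 genes, 1.69% had an r above 0.9, and the points share the libraries and the difference between the groups. Their log2 fold changes were 0.15, 0.93 and 0.47, and all 3 genes were higher after IL-1β (adjusted p = 0.0108, 0.00184 and 0.0309 from edgeR).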

How the data were processed

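Reads were trimmed with cutadapt, aligned to mm10 (GENCODE vM20) with STAR and assigned to genes with featureCounts by the authors. They deposited whole-number counts per gene symbol, and whether these precede the batch correction named in the methods is not stated. The deposited gene lengths in bases (unit: other) were used for levels per kilobase only, and they equalled the exon lengths of GENCODE vM21 for all 8 genes.

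The analysis used edgeR 4.0.16 (limma 3.58.1, R 4.3.3): TMM scaling and the quasi-likelihood test of treatment with no other covariate. It covered 14404 genes (CPM over 1 in 4 or more libraries), with Benjamini-Hochberg adjustment. The code was tested on simulated data. The 95% intervals of log2 fold changes are model intervals, and counting intervals and the floor of 3 reads cover only counting error, because without molecular identifiers several reads may stem from 1 molecule. Replicate pairs within a group differed by 1.98 to 6.34 in chi-square per degree of freedom, where sampling noise gives 1. Intervals, permutation tests and plots were made in Python 3.11.15 with scipy 1.17.1 and matplotlib 3.10.9.

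All genes of the lists that passed the test were named, with the most abundant per length and a few fixed names, and the rest were counted. Some genes of the lists are not reported here and enter no count of a list. The 8 genes and all lists were chosen with earlier results of these data known. The labels name no batch. Alternatives were DESeq2 1.42.0, other scalings, other filters, the replicate number as a block, 1 factor of unwanted variation, and each library left out in turn. Principal transcript lengths and the refits of *Nlrp3* without a filter were added after the data were seen.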

Additional observations from a re-analysis of the deposited data

Results flagged for a closer look

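For each tested gene of the lists and markers, and for the total counts, the highest and lowest library of each group of 4 was compared with the other 3 by Dixon's test at its 95% critical value. In 5 of 112 groups 1 library stood apart, and about 1 group in 20, or 5.6 groups here, does so by chance. The test covered 4 of the 8 inflammasome and pyroptosis genes, *Casp4*, *Gsdmd*, *Gsdme* and *Pycard*, and none of these was among them. The others did not pass the filter and were not examined. Of the pathway genes, *Gbp2* stood apart in IL-1β replicate 3 (13.7 CPM, the rest of its group 12.8 to 12.9), *Ifi204* in vehicle replicate 2 (3.87 CPM, the rest 4.14 to 4.15) and *Txn1* in IL-1β replicate 4 (218 CPM, the rest 198 to 201). Of the chondrocyte markers, *Comp* did so in vehicle replicate 4 (549 CPM, the rest 523 to 527) and *Hapln1* in IL-1β replicate 1 (253 CPM, the rest 266 to 267).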

How the results depend on the processing

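The rise of *Casp4* and of *Gsdmd* passed the test under all 16 alternatives run, with log2 fold changes of 0.68 to 0.74 and 0.93 to 1.27. *Gsdme* stayed between 0.11 and 0.15 and passed under none of them. The number of DEGs among the 8 genes was 1, with a range of 0 to 1 when single libraries were left out (0 without IL-1β replicate 1), and 2 without a filter on low counts, where *Nlrp3* was added and the DEGs among all genes rose from 751 to 1206. *Pycard* had a log2 fold change of -0.56 to -0.22 with single libraries left out, and the number of lower genes past the test was 0 to 1 (1 without IL-1β replicate 2). For *Nlrp3*, refits without a filter gave adjusted p-values of 0.00342 to 0.0356, and DESeq2 gave none. With a floor of 10 reads in place of 3, 4 genes instead of 3 were at the floor. Per length, *Casp4* stood above *Gsdme* by 2.15 (IL-1β) and 1.57 (vehicle) on the log2 scale, and by 1.18 and 0.59 with principal transcript lengths, which shorten *Gsdme* from 12742 to 2502 bases and *Casp4* from 3710 to 1435 bases. A replicate block left the number of DEGs at 751, and the log2 fold changes of *Casp4* and *Gsdmd* were 0.71 and 1.12. Same-numbered libraries had correlations of -0.07 to 0.04 in their deviations from the group means. Of the IL-1β libraries, only replicate 1 correlated best with the vehicle library of its own number, so the numbers are not taken as pairs. Of the 41 list genes, those with a change of direction when single libraries were left out had not passed the test: *Il18* (-0.27 to 0.0473), *Irf2* (-0.0513 to 0.0571), *Kcnk6* (-0.11 to 0.10), *Vps4a* (-0.10 to 0.0211) and *Vps4b* (-0.0044 to 0.0621). *Bcl2*, *Chmp4b*, *Irf1* and *Tmem173* lost the test without some single libraries, and *Ninj1* passed it without some and with the replicate block (log2 fold change 0.09). The cause was not tested. At these depths, levels of *Casp1*, *Aim2* and *Nlrp1b* under 3 reads could not be resolved.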
